A study of Mus musculus with 6 samples.

Results

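Type I interferon-stimulated genes are the genes that a cell transcribes when interferon alpha or beta binds its receptor. The 49 genes described here were taken by symbol from a list of such genes, and all 49 were among the 15168 genes with counts in the table. They were measured by bulk RNA-sequencing of macrophages sorted from wounds of young and aged mice on Day 3 after injury. The young group held 3 samples from mice of 12 weeks and the aged group 3 samples from mice of 24 months, and all mice were female wild-type animals of the C57BL6/J strain with full-thickness wounds on the back. Each age had a sample of set A, set B and set C, which are written here as young A to C and aged A to C. The labels do not say whether samples came from separate animals or from pooled wounds, so the p-values below measure only the spread between these samples, which may be technical.

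Live cells carrying CD45, CD11b, CD64 and F4/80 were sorted, and the gate had no step that removed Ly6G+ neutrophils. The deposited libraries held 15270103 to 17927483 counts each, so 1 count was worth 0.0553 to 0.0701 CPM (counts scaled to a common library size of 1 000 000). Library sizes were first scaled by TMM, a method that takes most genes as equal between libraries, with factors of 0.904 to 1.11. Of the 11878 genes that passed the filter on low counts, 7.97% were lower and 9.73% higher in aged samples at an adjusted p under 0.05 (edgeR's quasi-likelihood test, Benjamini-Hochberg adjustment over all genes tested). The transcripts of all 4 sort proteins were present in every sample, and 2 of them differed between the ages. Itgam, which encodes CD11b, rose from 334, 393 and 402 CPM in young to 822, 702 and 726 CPM in aged samples (log2 fold change 0.99, SE 0.17, edgeR adjusted p = 0.00735). Adgre1, which encodes F4/80, fell from 289.6, 357 and 341 CPM in young to 172, 241 and 199 CPM in aged samples (log2 fold change -0.69, SE 0.18, edgeR adjusted p = 0.0292). Fcgr1 (CD64) and Ptprc (CD45) did not pass, with edgeR adjusted p-values of 0.520 and 0.386.

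Interferons alpha and beta bind the receptor pair IFNAR1 and IFNAR2, which activates the kinases TYK2 and JAK1. These phosphorylate transcription factors, among them STAT2, which acts with IRF9 at the interferon-stimulated response element in the promoters of the target genes. The products block viral entry, translation and replication, sense foreign nucleic acid, or tune the response itself. Macrophages also keep a low level of these transcripts without infection, and nucleic acid from dying cells is a known trigger of the pathway in sterile wounds.

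To show the element that names this group of genes, the promoter stretches of the 4 genes with the largest fall past the test and an entry in the reference table are given first, and those of Isg15, Oas1a and Ifi211 follow as examples of other families, chosen after their values were seen. Each is the stretch of 250 bases before the annotated start of a RefSeq transcript on build GRCm38.p6 (the same coordinates as mm10), written 5′ to 3′ along the gene's own strand. Capitals mark every match to the core of the interferon-stimulated response element, which is GAAA, any 2 bases and GAAA again, on either strand, so that an antisense match starts with TTTC and ends with TTTC. Where matches overlap, the capitals run on.
Ifit3, chr19:34583279-34583528, plus strand: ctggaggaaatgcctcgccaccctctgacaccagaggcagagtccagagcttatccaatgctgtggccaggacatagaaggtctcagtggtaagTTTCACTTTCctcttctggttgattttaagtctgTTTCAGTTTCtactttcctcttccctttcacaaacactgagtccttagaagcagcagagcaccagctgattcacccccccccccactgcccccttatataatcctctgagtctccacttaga
Ifit3b, chr19:34607707-34607956, plus strand: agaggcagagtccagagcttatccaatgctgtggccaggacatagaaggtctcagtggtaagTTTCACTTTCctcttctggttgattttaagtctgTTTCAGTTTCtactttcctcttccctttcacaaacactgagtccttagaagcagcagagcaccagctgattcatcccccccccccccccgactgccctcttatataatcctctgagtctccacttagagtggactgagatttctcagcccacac
Phf11d, chr14:59365491-59365740, minus strand: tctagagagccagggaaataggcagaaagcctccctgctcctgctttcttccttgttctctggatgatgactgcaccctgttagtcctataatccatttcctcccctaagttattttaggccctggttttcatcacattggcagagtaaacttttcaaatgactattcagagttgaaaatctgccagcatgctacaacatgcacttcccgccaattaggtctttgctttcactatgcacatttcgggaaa
Ifit1bl1, chr19:34601969-34602218, minus strand: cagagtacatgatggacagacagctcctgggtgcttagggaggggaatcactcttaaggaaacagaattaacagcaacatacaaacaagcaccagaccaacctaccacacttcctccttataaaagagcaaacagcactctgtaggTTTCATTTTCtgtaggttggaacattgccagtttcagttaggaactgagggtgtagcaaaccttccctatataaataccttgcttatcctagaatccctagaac
Isg15, chr4:156200819-156201068, minus strand: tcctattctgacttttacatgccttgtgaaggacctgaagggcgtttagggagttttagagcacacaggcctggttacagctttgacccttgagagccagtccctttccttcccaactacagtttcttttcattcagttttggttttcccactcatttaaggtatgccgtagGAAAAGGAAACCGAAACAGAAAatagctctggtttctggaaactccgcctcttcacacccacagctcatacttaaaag
Oas1a, chr5:120907526-120907775, minus strand: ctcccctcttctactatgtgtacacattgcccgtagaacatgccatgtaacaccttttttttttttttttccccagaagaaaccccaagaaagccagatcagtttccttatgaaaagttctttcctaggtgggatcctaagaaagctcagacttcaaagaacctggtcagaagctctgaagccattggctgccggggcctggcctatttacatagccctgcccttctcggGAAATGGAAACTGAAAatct
Ifi211, chr1:173913047-173913296, minus strand: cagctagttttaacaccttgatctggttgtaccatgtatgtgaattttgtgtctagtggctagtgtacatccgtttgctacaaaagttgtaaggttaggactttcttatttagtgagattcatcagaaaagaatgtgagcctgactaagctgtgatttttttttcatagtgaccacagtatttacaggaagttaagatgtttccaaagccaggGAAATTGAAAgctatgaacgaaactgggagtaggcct

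In Isg15, 3 overlapping matches run from position -78 to -57, where -1 is the base just before the start, while Oas1a holds 2 that end at -5. Both matches of Ifit3 and both of Ifit3b are antisense and lie the same distance apart, and no match to these letters is in the window of Phf11d. Over windows of 250 bases before to 50 after a start, 22 of the 39 members with an entry held that core on either strand (56.4%), against 362 of 8753 tested genes with an entry (4.14%) and 1079 of all 27025 genes in the table (3.99%). The share was 55% of the 20 such members that fell with age and 57.9% of the 19 that did not pass the test. The presence of these letters thus did not separate members past the test from those that did not pass. All of these 19 but Slfn2 and Ifi203 also had a negative log2 fold change, so genes that fell were not compared with genes that did not. The gamma-activated sequence TTCNNNGAA, an element of genes that answer to interferon gamma, was found in 7 of the 39 members (17.9%) and in 8.27% of the tested genes, and single bases of it can overlap a match to the first motif. A match is a description of the sequence and not a measured binding site.

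**Figure D1:**
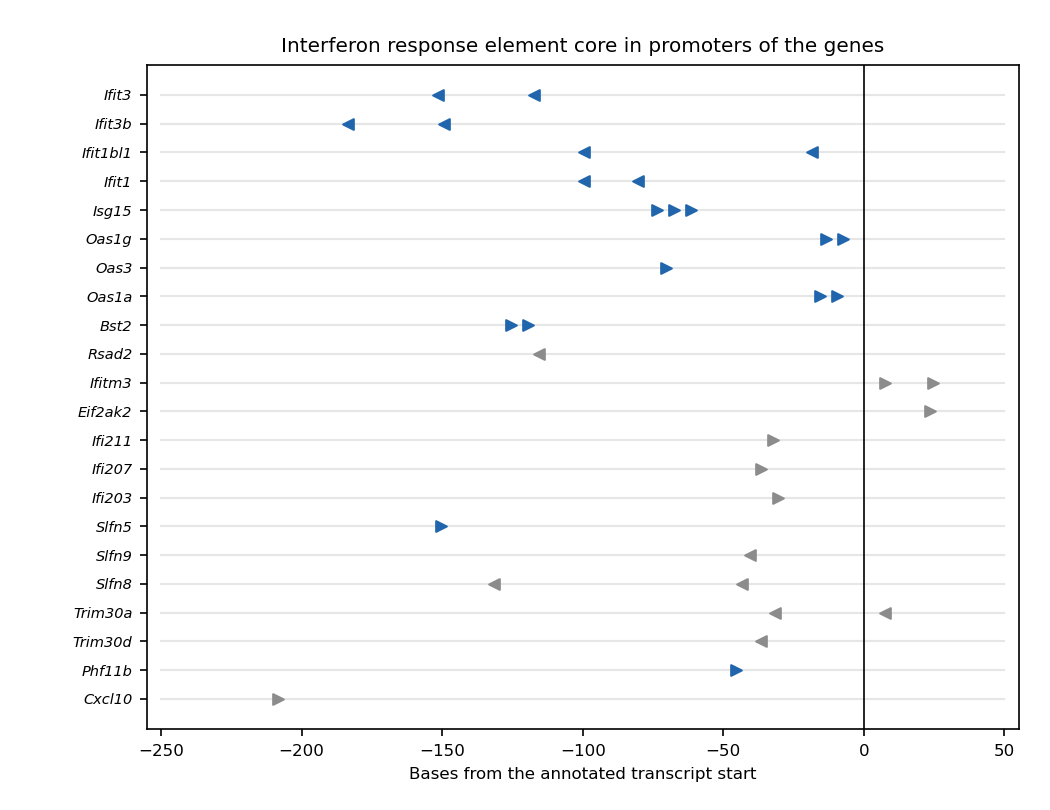
Position of each match to the interferon-stimulated response element core, in bases from the annotated transcript start, in the 22 members whose windows hold one. Where a member has several annotated starts, the matches of all its windows share a row, each counted from its own start. The same site can then appear more than once, as at -136 and -48 in Slfn8. Triangles pointing right are sense and those pointing left antisense matches; blue marks members that fell at an adjusted p under 0.05 and grey the other members, and both kinds of member hold matches, from position -213 in Cxcl10 to 29 in Ifitm3.

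Of the 49 interferon-stimulated genes, 25 fell in aged wound macrophages and 24 did not pass the test. All 49 members passed the filter on low counts, 47 had a negative log2 fold change against 51.2% of all genes tested, and 25 (51.0%) were lower at an adjusted p under 0.05 by edgeR against the 7.97% of all genes named above, where 17.7% passed in either direction. By more than 2-fold, 19 members fell, against 4.20% of all genes. No member rose past the test, for which the share over all genes was 9.73%, or 4.59% by more than 2-fold: Slfn2 was the single member higher at an unadjusted p under 0.05, and it passed in DESeq2 and without aged B. The median log2 fold change over the members was -0.88, beside -0.02 over all genes tested. In 33 members every aged sample lay below every young sample (67.3%, against 19.0% of all genes). In 1, Slfn2, every aged sample lay above every young sample, against 19.2% of all genes. In bulk samples, fewer cells that carry a transcript and less of it per cell cannot be told apart.

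The number of members past the test depended on which samples were in the fit. Without young C, 6 members were lower (Ifit3, Oas1g, Bst2, Rtp4, Slfn5 and Lgals3bp), and over all genes the lower calls went from 947 to 67. The members lower numbered 10 without young B, 13 without aged B, 16 without aged A, 23 without aged C and 31 without young A, and the lower calls over all genes in the same fits numbered 330, 608, 522, 194 and 1128. Ifit3, Oas1g, Bst2, Rtp4 and Lgals3bp passed in all 6 of these fits. The median over the members stayed between -1.12 and -0.75 in them. Of the 24 members that did not pass with all samples, 7 passed as lower without young A (Cmpk2, Isg20, Samd9l, Ifi204, Ifi211, Dtx3l and Ms4a4c), Rsad2 without aged C and Cxcl9 without aged B. With all 6 samples, each of the 25 genes that edgeR called also passed by DESeq2 and by limma-voom. DESeq2 added Cmpk2, Samd9l, Dtx3l and Ms4a4c as lower, and limma-voom added Cmpk2 and Dtx3l.

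Summed over the 49 members, young A, B and C held 4893, 5727 and 5990 CPM, and aged A, B and C held 4021, 3265 and 4653 CPM. The 2 ages did not overlap in this sum, although young A and aged C lay close together. Since a few abundant genes carry most of a sum, the mean log2 distance of the members from their own average over the 6 samples was computed too. It was 0.24, 0.66 and 0.70 in young A, B and C and -0.98, -0.58 and -0.03 in aged A, B and C. On this scale aged A was the lowest sample and aged C the nearest to the young samples, with young A the lowest of its age. Aged C was the highest aged sample in 42 of the 49 members, against 27.7% of all genes tested, aged A the lowest aged sample in 38, against 37.1%, and young A the lowest young sample in 36, against 35.9%.

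**Figure D2:**
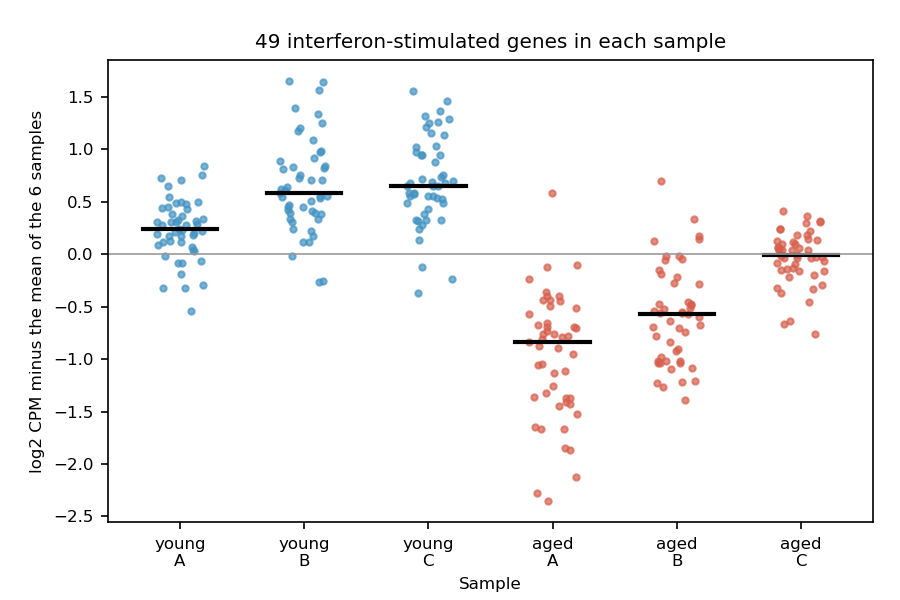
Each point is 1 of the 49 members in 1 sample, as log2 CPM minus that gene's mean over the 6 samples, with young samples in blue and aged in red; black lines are medians and the horizontal scatter has no meaning. The medians fall from 0.65 in young C to -0.84 in aged A, and aged C lies at -0.01.

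**Figure D3:**
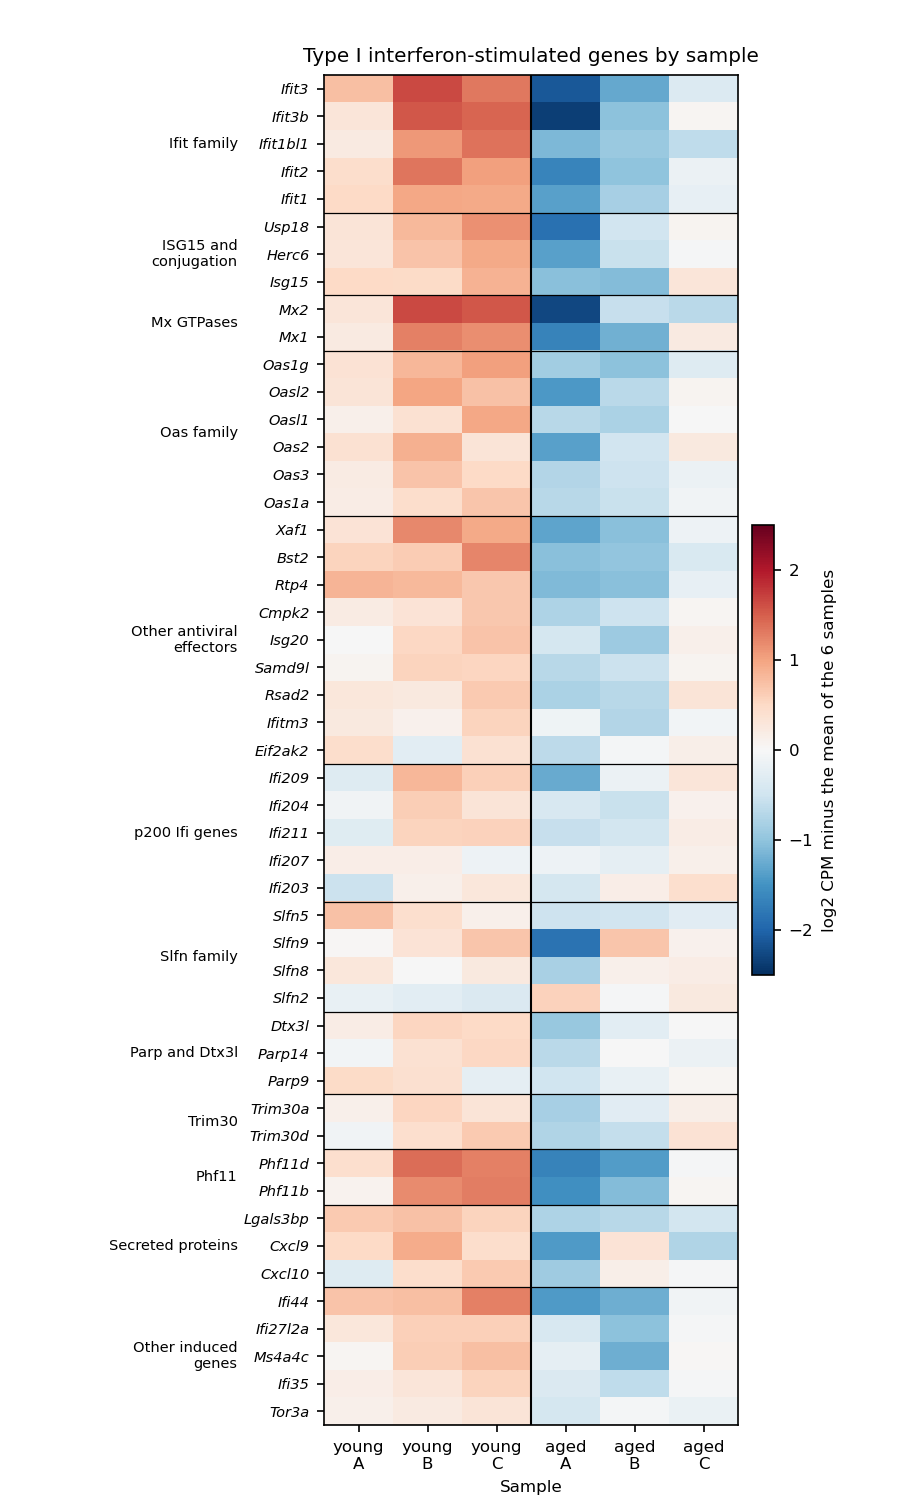
Heat map of the 49 members by family in the 6 samples, coloured by log2 CPM minus the mean of the 6 samples (red above, blue below). Aged A and aged B are blue for most members, aged C is pale, and Slfn2 runs the other way with its lowest values in the young samples.

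The Ifit family showed the largest fall of the families with more than a pair of members. IFIT proteins bind viral RNA that lacks the host's cap modification and keep it from translation. The 5 member genes lie on chromosome 19 from 34550694 to 34650009 of mm10, and all 5 fell by more than 2-fold, with no overlap between ages. Ifit1bl2, an Ifit gene outside the 49 that lies in the same interval (34617049 to 34640743), did not pass and had the opposite sign, at 0.277, 1.29 and 0.859 CPM in young and at 1.40, 1.46 and 3.77 CPM in aged samples (log2 fold change 1.45, SE 0.60, edgeR adjusted p = 0.116). Ifit3 stood at 51.8, 96.4 and 76.4 CPM in young A, B and C and at 6.94, 12.6 and 24.2 CPM in aged A, B and C. Its aged samples all lay below the lowest young sample, with aged A far below the rest. The level was 5.13-fold lower in aged samples (log2 fold change -2.36, SE 0.39, adjusted p = 0.00709 by edgeR). Ifit3b, a near copy, was at 6.42, 15.5 and 14.5 CPM in young and at 0.911, 2.48 and 5.31 CPM in aged samples, where aged C came close to young A (log2 fold change -2.05, SE 0.52, edgeR adjusted p = 0.0271).

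Ifit1bl1 was measured at 5.92, 10.9 and 13.2 CPM in young and at 2.24, 2.61 and 3.21 CPM in aged A, B and C. Its aged samples were close together and below all young ones (log2 fold change -1.89, SE 0.33, edgeR adjusted p = 0.00837). Ifit2 read 25.8, 47.8 and 38.8 CPM against 5.95, 9.30 and 17.0 CPM, a log2 fold change of -1.80 (SE 0.35, edgeR adjusted p = 0.0122). Ifit1, which binds the unmodified cap itself, had the smallest fall of the family, with 31.3, 43.4 and 42.5 CPM in young and 8.48, 12.3 and 19.0 CPM in aged samples. In all 5 genes aged A was the lowest and aged C the highest aged sample, and young A was the lowest young sample. The change of Ifit1 was still 2.95-fold (log2 fold change -1.55, SE 0.28, edgeR adjusted p = 0.00847). Without young C, Ifit3 alone of the 5 passed, and Ifit3b was also lost without young B and without aged B.

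Copies that share sequence can exchange counts, and the deposited estimates were not whole numbers for many genes. The longest annotated transcripts of Ifit3 and Ifit3b are 97.8% identical over 97.2% of the shorter one, and their estimates were fractions whose sum was whole within 0.01 in all 6 samples. Summed, the pair was at 58.2, 111.9 and 90.8 CPM in young and at 7.85, 15.1 and 29.5 CPM in aged samples (log2 fold change -2.31, SE 0.41, edgeR adjusted p = 0.00856). The fall of the pair therefore did not rest on how reads were split between the copies. Oas1a and Oas1g (97.5% over 98.7%) and Trim30a and Trim30d (85.0% over 92.6%) behaved alike in that their sums were whole within that tolerance. The values of the single genes in these pairs, of Slfn8 and Slfn9 (92.7% over 86.9%) and of Ifi204 and Ifi211 (97% over 76.2%), are uncertain to the extent that the split is.

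ISG15 is a ubiquitin-like protein that is joined to other proteins during the response, USP18 removes it and also dampens the receptor, and HERC6 is the mouse ligase that attaches it. All 3 genes fell by more than 2-fold. Usp18 was at 35.4, 49.9 and 62.5 CPM in young and at 7.71, 20.3 and 29.8 CPM in aged A, B and C, so that aged C approached young A without reaching it (log2 fold change -1.35, SE 0.40, edgeR adjusted p = 0.0411). Herc6 measured 13, 17.1 and 20.3 CPM in young and 3.99, 7.07 and 10.2 CPM in aged samples, where set A was the lowest sample of each age (log2 fold change -1.24, SE 0.32, edgeR adjusted p = 0.0277). Isg15, on chromosome 4 from 156199455 to 156200796, was at 77.4, 76.2 and 101 CPM in young and at 26.6, 25.7 and 67.6 CPM in aged samples. Aged A and aged B lay far below the young samples and close to each other, whereas aged C lay just under the young range. The log2 fold change of Isg15 was -1.09 (SE 0.34, edgeR adjusted p = 0.0497). It passed without aged C but in none of the other 5 fits that left out a sample, and its adjusted p ran from 0.00958 to 0.178 over all alternatives. Usp18 and Herc6 were lost without young B, without young C and without aged B.

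MX proteins are GTPases that trap viral nucleoproteins. The annotation in the table lists both mouse genes as polymorphic pseudogenes, since many laboratory strains carry disrupted alleles, and the transcripts were measured all the same. With all 6 samples Mx2 had the largest fall of all members, just ahead of Ifit3 (log2 fold change -2.36). In fits that left out a sample, the log2 fold change reached -2.69 for Mx2 and -2.93 for Ifit3. Mx2 was at 3.15, 8.15 and 7.66 CPM in young and at 0.420, 1.66 and 1.54 CPM in aged A, B and C. The lowest of these values rests on 6 counts, and no aged sample reached young A. Mx2 was 5.24-fold lower in aged samples (log2 fold change -2.37, SE 0.51, edgeR adjusted p = 0.0159). Mx1 was at 11.6, 23.7 and 22.2 CPM in young and at 3.01, 4.20 and 11.6 CPM in aged samples, so that aged C and young A had nearly the same value (log2 fold change -1.61, SE 0.45, edgeR adjusted p = 0.0369). Both lost the call without young B and without young C, and Mx1 also without either of aged A and aged B.

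OAS proteins sense double-stranded RNA and make the second messenger that activates RNase L, while the OAS-like proteins lack or change that activity. In the Oas family 5 of 6 members fell and in all 6 every aged sample lay below every young sample. Oas1g, on chromosome 5, was at 37.3, 51.6 and 58.9 CPM in young and at 15.8, 14.2 and 23.2 CPM in aged samples, well apart (log2 fold change -1.47, SE 0.24, edgeR adjusted p = 0.00627). Oasl2 was at 98.5, 155 and 131 CPM in young and at 28.7, 49.1 and 81.9 CPM in aged samples, with aged C nearest to young A (log2 fold change -1.27, SE 0.33, edgeR adjusted p = 0.0277). Oas1a, the most abundant of the family per kilobase of transcript, had the smallest fall, from 202, 242 and 287 CPM to 109.7, 121 and 167 CPM. Its ages did not overlap, and its log2 fold change was -0.88 (SE 0.21, edgeR adjusted p = 0.0208). Oasl1 and Oas3 fell with log2 fold changes of -1.0 and -0.94, and Oas2, at -0.96, did not pass (edgeR adjusted p = 0.0907). Oas1g passed in every fit that left out a sample, whereas Oas1a, Oasl1 and Oas3 were lost without young B, without young C, without aged A and without aged B, with Oas3 lost also without aged C. Oasl2 was lost without young B, young C or aged B. The sum of Oas1a and Oas1g fell with a log2 fold change of -0.96 (SE 0.21, edgeR adjusted p = 0.0165).

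Of the 9 other antiviral effectors, 3 fell, each by more than 2-fold and with no overlap. Xaf1, which encodes a binding partner of the apoptosis inhibitor XIAP, was at 46.2, 84.2 and 70.6 CPM in young and at 14.6, 17.8 and 33.5 CPM in aged samples (log2 fold change -1.61, SE 0.32, edgeR adjusted p = 0.0122). The lowest young and the highest aged sample were again young A and aged C. Bst2, whose product tetherin holds budding virus at the cell surface, was at 93.1, 99.4 and 148 CPM in young and at 30.6, 32.2 and 49.0 CPM in aged samples, the clearest separation of the 3 (log2 fold change -1.60, SE 0.24, edgeR adjusted p = 0.00450). Rtp4, on chromosome 16 from 23520291 to 23614222, encodes a receptor chaperone with antiviral activity. It was at 211, 208 and 189 CPM in young and at 54.6, 57.4 and 103 CPM in aged samples, where the young samples lay close together and aged C stood above the other two aged samples. Rtp4 was 2.83-fold lower (log2 fold change -1.50, SE 0.24, edgeR adjusted p = 0.00623). Xaf1 was lost without young C, and Bst2 and Rtp4 passed in all fits that left out a sample.

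The other 6 effectors did not pass. Their log2 fold changes were -0.80 for Cmpk2, -0.78 for Isg20, -0.76 for Samd9l, -0.70 for Rsad2, -0.58 for Ifitm3 and -0.38 for Eif2ak2, with edgeR adjusted p-values of 0.0512, 0.0777, 0.0530, 0.107, 0.0883 and 0.360. Cmpk2 passed in DESeq2 and limma-voom, Samd9l in DESeq2, both of these and Isg20 without young A, and Rsad2 without aged C (edgeR adjusted p = 0.0257). Without scaling factors all but Eif2ak2 passed. Eif2ak2, which encodes the kinase PKR, had the smallest change of this group and was at 13.9, 8.45 and 13.3 CPM in young and at 6.38, 9.81 and 11.2 CPM in aged samples. The low value of young B lay inside the aged range, so the ages overlapped. Rsad2, which encodes viperin, likewise overlapped, with 89.2, 86.9 and 116 CPM in young and 42.7, 45.3 and 92.1 CPM in aged samples, because aged C reached the young range. Ifitm3, which blocks viral fusion, was the most abundant member per kilobase of transcript at both ages, with mean levels of 1525 CPM per kilobase in young and 1017 CPM per kilobase in aged samples.

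The p200 Ifi genes encode sensors and regulators that bind DNA, and none of the 5 members on chromosome 1 (173630917 to 173942672) passed the test. Ifi204 alone had an unadjusted p under 0.05, and DESeq2 and limma-voom called none, while Ifi204 passed without scaling factors, and Ifi204 and Ifi211 passed without young A (edgeR adjusted p = 0.0422 and 0.0351). Ifi209 had the largest change, with 74.5, 167 and 140.2 CPM in young and 38.9, 83.9 and 116 CPM in aged samples (log2 fold change -0.68, SE 0.38, edgeR adjusted p = 0.228). Both aged B and aged C lay above young A. At the other end, Ifi203 was at 24.3, 38.4 and 43.0 CPM in young and at 26.0, 39.9 and 47.1 CPM in aged samples, which interleave (log2 fold change 0.10, SE 0.26, edgeR adjusted p = 0.820), and its sign turned without scaling factors (-0.072), without young A (-0.11) and without aged C (-0.090). Ifi204, Ifi211 and Ifi207 had log2 fold changes of -0.58, -0.57 and -0.15 and overlapping ages. The same cluster holds p200 genes outside the 49. Of the 7 of these tested, 4 fell by more than 2-fold, against 4.20% of all genes. These were Ifi208 (log2 fold change -2.20, SE 0.62), Ifi213 (-2.05, SE 0.45), Ifi206 (-1.55, SE 0.47) and Mndal (-1.25, SE 0.32), with edgeR adjusted p-values of 0.0357, 0.0166, 0.0462 and 0.0277. The whole p200 family thus held both genes that fell and genes that did not pass. This contrast is uncertain to the extent that reads were split between p200 genes. Estimates of Ifi206, Ifi208 and Mndal were not whole in young B, and Ifi204 and Ifi207 are 92% identical over 40.3% of the shorter transcript.

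Schlafen proteins include growth regulators and nucleases that act on transfer RNA. The 4 Slfn members, on chromosome 11 from 82951349 to 83070678, gave values that ran in both directions. Slfn5 fell from 55.3, 44.6 and 36.7 CPM in young to 23.3, 24.1 and 27.3 CPM in aged samples. Its ages did not overlap and the aged samples lay close together (log2 fold change -0.87, SE 0.19, edgeR adjusted p = 0.0160), although it did not pass without aged C. Slfn2, whose product keeps immune cells quiescent, was at 963, 917 and 847 CPM in young and at 1641, 1079 and 1296 CPM in aged samples. It was the only member in which every aged sample lay above every young sample, with aged A the highest and not the lowest. Its log2 fold change of 0.56 (SE 0.19) had an unadjusted p of 0.0161 and an edgeR adjusted p of 0.0710, and the adjusted p ran from 0.0264 to 0.220 over the alternatives. Slfn9 and Slfn8 had log2 fold changes of -0.40 and -0.27 with overlapping ages, and that of Slfn9 turned to 0.061 without aged A. Slfn8, with the smallest change of the family, was at 32.1, 26.2 and 31.2 CPM in young and at 15.1, 28.8 and 30.0 CPM in aged samples.

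In 5 further members of 2 small groups the log2 fold changes lay between -0.78 and -0.45, and none passed by edgeR, although Dtx3l, Parp14 and Trim30a had an unadjusted p under 0.05. The ADP-ribosylating proteins PARP9 and PARP14 and the ubiquitin ligase DTX3L, partner of PARP9, modify STAT signalling and chromatin. Dtx3l was at 17.8, 22.8 and 21.9 CPM in young and at 7.99, 12.9 and 15.4 CPM in aged samples, without overlap (log2 fold change -0.78, SE 0.25, edgeR adjusted p = 0.0522). It was the one gene of the 5 to pass in DESeq2 and in limma-voom. Parp9 was at 25.9, 24.4 and 15.8 CPM in young and at 13.2, 16.2 and 19.1 CPM in aged samples, which overlap through young C (log2 fold change -0.45, SE 0.23, edgeR adjusted p = 0.201), and Parp14 lay between at -0.56. Parp9 and Dtx3l overlap on opposite strands of chromosome 16 and the library kit does not keep strand, so reads in the overlap cannot be assigned, and their sum did not pass (log2 fold change -0.60, edgeR adjusted p = 0.0642). Trim30a, a brake on Toll-like receptor signalling, was at 49.7, 66.4 and 57.5 CPM in young and at 25.6, 37.4 and 50.5 CPM in aged samples (log2 fold change -0.61, SE 0.24, edgeR adjusted p = 0.0965). Trim30d was at 19.5, 27.7 and 32.5 CPM and 12.2, 13.6 and 26.7 CPM (log2 fold change -0.60, SE 0.30, edgeR adjusted p = 0.190). In both Trim30 genes aged C lay above young A.

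The pair of Phf11 members, which encode PHD finger proteins, fell by amounts in the range of the Ifit genes. Phf11d, on chromosome 14, was at 32.7, 64.0 and 58.1 CPM in young and at 7.57, 9.17 and 23.8 CPM in aged samples (log2 fold change -1.93, SE 0.41, edgeR adjusted p = 0.0152). Phf11b was at 28.0, 59.4 and 64.3 CPM in young and at 9.04, 12.4 and 27.4 CPM in aged samples (log2 fold change -1.63, SE 0.41, edgeR adjusted p = 0.0255). In both genes the highest aged sample, aged C, lay below the lowest young sample, young A. Both were lost without young B and without young C, and Phf11b also without either of aged A and aged B. Phf11a, their neighbour outside the 49, fell with a log2 fold change of -2.14 (SE 0.40, edgeR adjusted p = 0.0101).

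Among the genes of secreted proteins, Lgals3bp, which encodes a galectin-binding glycoprotein, gave the smallest adjusted p of all members. It was at 297, 313 and 278 CPM in young and at 110.1, 117 and 138 CPM in aged samples. Within each age the samples lay close together, and the gap between ages was larger than the spread in either. Lgals3bp was 2.43-fold lower (log2 fold change -1.28, SE 0.16, edgeR adjusted p = 0.00236). Cxcl10, a chemokine for T cells, had the smallest change and overlapped, with 47.6, 81.3 and 93.7 CPM in young and 31.9, 65.8 and 58.3 CPM in aged samples (log2 fold change -0.51, SE 0.30, edgeR adjusted p = 0.248). Cxcl9, which interferon gamma induces most strongly, was near the limit of detection at 0.420 to 2.64 CPM, passed without aged B (edgeR adjusted p = 0.0494) and did not pass with all samples (log2 fold change -1.14, SE 0.51, edgeR adjusted p = 0.143).

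Of the 5 other induced genes 3 fell, and in all 5 every aged sample lay below every young sample. Ifi44 was low throughout, at 2.54, 2.64 and 3.77 CPM in young and at 0.490, 0.573 and 1.42 CPM in aged samples, the smallest of which rests on 7 counts (log2 fold change -1.83, SE 0.47, edgeR adjusted p = 0.0282). Ifi27l2a and Ifi35 fell with log2 fold changes of -0.93 and -0.68. Ms4a4c, a membrane protein gene of monocytes, did not pass (log2 fold change -0.88, edgeR adjusted p = 0.0678), although DESeq2 called it. Tor3a had the smallest change, from 65.0, 69.6 and 74.2 CPM in young to 44.1, 57.4 and 53.5 CPM in aged samples (log2 fold change -0.43, SE 0.16, edgeR adjusted p = 0.0883). Ifi44, Ifi27l2a and Ifi35 were each lost without young B, without young C, without aged A and without aged B, with Ifi35 lost also without aged C.

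**Figure D4:**
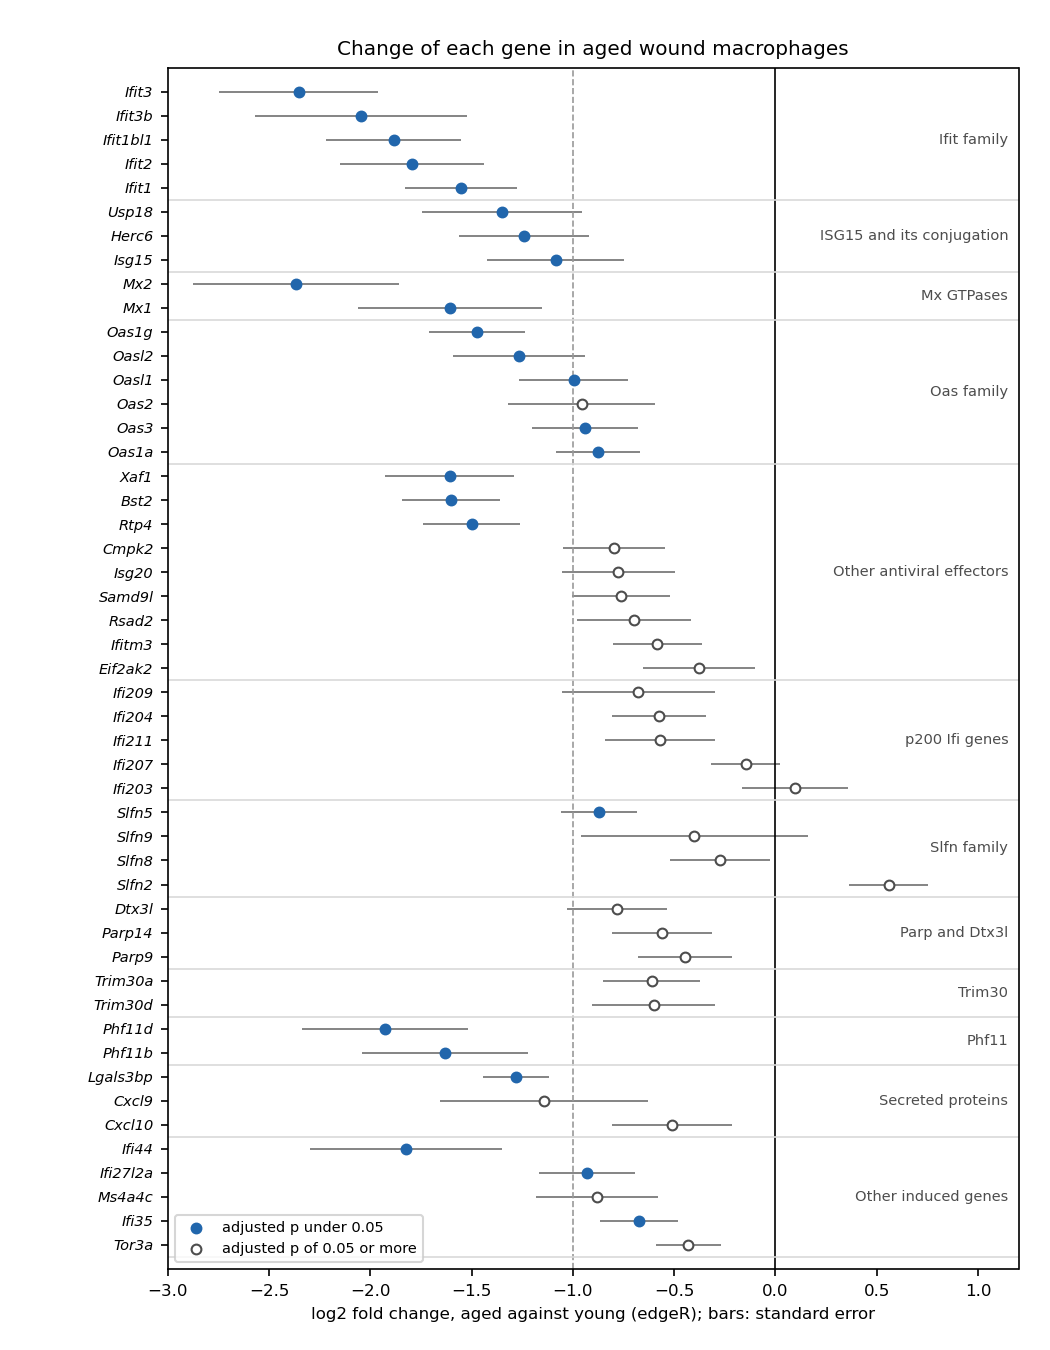
Log2 fold change of each member, aged against young, from edgeR's fit, with bars of 1 standard error, grouped by family. Filled points passed at an adjusted p under 0.05, and the dashed line marks a 2-fold fall; the points run from -2.37 for Mx2 to 0.56 for Slfn2, and the 5 points farthest to the left are Mx2, Ifit3, Ifit3b, Phf11d and Ifit1bl1.

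Levels of the members also spanned a wide range at 1 age. Per kilobase of the longest annotated transcript, young means ran from 1525 CPM per kilobase for Ifitm3 to 0.420 CPM per kilobase for Slfn9. Slfn2 ranked 2 and Ms4a4c 3 of the 49 at both ages. Ifit3 went from rank 14 in young to rank 27 in aged samples, and Bst2 from rank 4 to rank 11. Members close to each other in the genome did not always have like changes: 33 of the 49 lie in 11 clusters with gaps under 500 kb, and the log2 fold changes of the Slfn members ran from -0.87 to 0.56. Those of the 5 Ifit members ran from -2.36 to -1.55, with Ifit1bl2, outside the 49, at 1.45 in the same interval.

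The genes upstream of the members were read in the same fit. Of the 21 interferon genes looked for as ligands, only Ifnb1 and Ifng were listed. These were at no more than 0.553 CPM in any sample and fell below the filter. The other 19 were not listed, have no values and were not analysed here. Of the 5 receptor genes tested, 3 rose. Ifnar1 was at 125, 98.7 and 119 CPM in young and at 197, 169 and 169.8 CPM in aged samples, without overlap (log2 fold change 0.64, SE 0.16, edgeR adjusted p = 0.0267). Ifnar2, its partner, was at 254, 287 and 304 CPM in young and at 282, 304 and 324 CPM in aged samples, which interleave (log2 fold change 0.11, SE 0.16, edgeR adjusted p = 0.670). For interferon gamma, Ifngr2 rose (0.83, SE 0.20, edgeR adjusted p = 0.0208) and Ifngr1 did not pass (0.11, SE 0.20), and Il10rb, shared with the lambda receptor, rose (0.58, SE 0.18, edgeR adjusted p = 0.0485). Without scaling factors Ifnar1 and Il10rb no longer passed, and the values of Ifnar2 and Ifngr1 were negative.

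Of the kinases, Jak2, which serves the interferon gamma receptor and many cytokine receptors, was at 23.6, 17.1 and 22.6 CPM in young and at 65.5, 53.1 and 69.1 CPM in aged samples. The aged samples were all far above the young ones (log2 fold change 1.57, SE 0.19, edgeR adjusted p = 0.00195). Jak1 (0.40, SE 0.15, edgeR adjusted p = 0.0907) and Tyk2 (0.20, SE 0.22, edgeR adjusted p = 0.542), the kinases of the interferon alpha and beta receptor, did not pass. Jak2 passed in each of the 14 alternative fits.

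The transcription factors of the pathway split. Stat2 was at 11.3, 16.7 and 15.5 CPM in young and at 8.55, 8.02 and 9.57 CPM in aged samples, without overlap (log2 fold change -0.73, SE 0.22, edgeR adjusted p = 0.0437). Irf9, whose product works with STAT2, was at 73.9, 89.6 and 88.1 CPM in young and at 61.1, 65.9 and 89.6 CPM in aged samples, so that aged C equalled the highest young sample (log2 fold change -0.22, SE 0.19, edgeR adjusted p = 0.438). Irf7, which drives further interferon transcription and is itself a target, was at 235, 375 and 395 CPM in young and at 94.0, 67.0 and 176 CPM in aged samples, the largest fall among these factors (log2 fold change -1.58, SE 0.33, edgeR adjusted p = 0.0152). Irf5, a factor of Toll-like receptor signalling, rose (0.71, SE 0.16, edgeR adjusted p = 0.0165). Irf1 (-0.52, SE 0.24), Irf8 (0.24, SE 0.17) and Irf3 (0.18, SE 0.23) did not pass, with edgeR adjusted p-values of 0.161, 0.359 and 0.620.

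Of the 6 brakes on the pathway 2 rose and 1 fell. Socs1, an inhibitor of JAK kinases, was at 60.0, 20.5 and 26.5 CPM in young and at 142, 81.8 and 112 CPM in aged samples (log2 fold change 1.65, SE 0.36, edgeR adjusted p = 0.0172). Socs3, which acts mainly on STAT3 signalling, was at 898, 541 and 436 CPM in young and at 2648, 1361 and 2215 CPM in aged samples (log2 fold change 1.73, SE 0.31, edgeR adjusted p = 0.00898). For both, set A was the highest sample at each age, and the ages did not overlap. Ptpn6, which encodes the phosphatase SHP-1, was at 110.0, 271 and 214 CPM in young and at 89.5, 93.6 and 98.2 CPM in aged samples, tight in the aged group and wide in the young (log2 fold change -1.08, SE 0.28, edgeR adjusted p = 0.0270). Ptpn2 (0.48), Ptpn1 (0.27) and Pias1 (0.25) did not pass, with edgeR adjusted p-values of 0.120, 0.282 and 0.314. Beside 7.97% lower and 9.73% higher over all genes tested, 3 of the 21 pathway genes tested and reported here were lower and 7 higher. Without young C these counts were 0 and 1 (Jak2), without young B 0 and 2 (Jak2 and Socs3), without aged C 1 (Irf7) and 2, and without aged A or aged B 1 lower (Irf7) and 6 higher. With all samples the same 3 were lower at an unadjusted p under 0.05 and by DESeq2, while Stat2 did not pass by limma-voom (adjusted p = 0.0532) or by edgeR with no filter on low counts (adjusted p = 0.0519), which left Irf7 and Ptpn6 as the pathway genes lower.

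**Figure D5:**
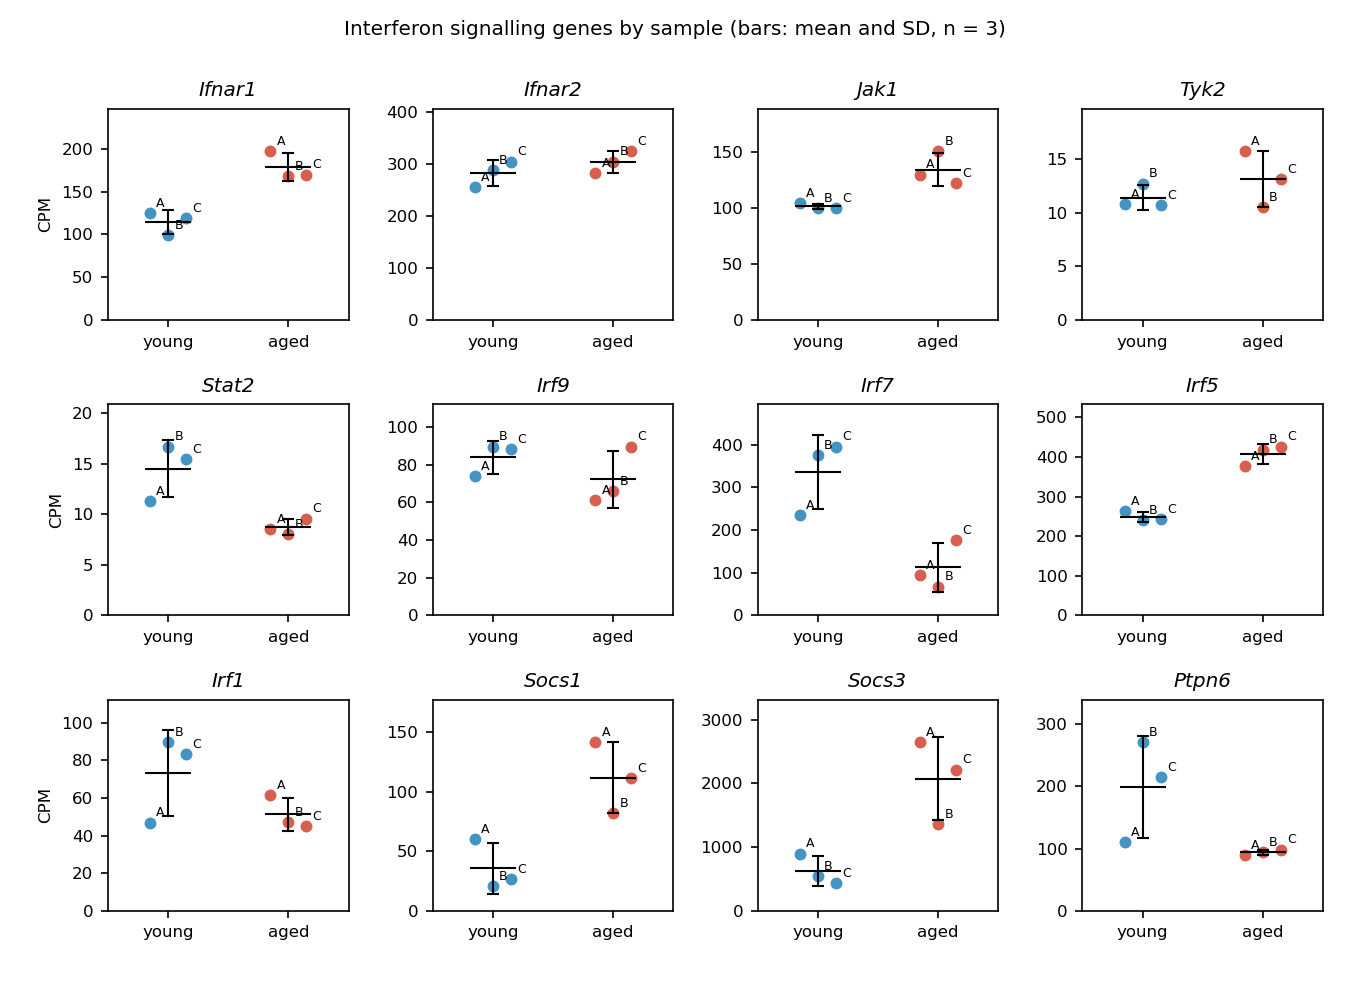
CPM of 12 interferon signalling genes in each sample, young in blue and aged in red with the set letter beside each point, from 0 on a linear axis that differs between panels; bars are the mean and SD (n = 3). Stat2 and Irf7 are lower and Ifnar1, Irf5, Socs1 and Socs3 higher in all aged samples, whereas Ifnar2, Tyk2 and Irf9 overlap.

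A second list held 45 tested interferon-stimulated genes outside the 49, and its difference from the members was not tested. Of these, 28 were lower (62.2%, against 7.97% of all genes tested), 16 of them by more than 2-fold (against 4.20% of all genes). In this list 1 gene was higher (against 9.73% of all genes), and the median log2 fold change was -0.89. The 8 largest falls were those of Tgtp2 (-2.70), Ly6a (-2.12), Pml (-1.48), Ifi47 (-1.46), Ddx60 (-1.45), Igtp (-1.39), Mov10 (-1.36) and Zbp1 (-1.33). Tgtp2, Ifi47 and Igtp encode immunity-related GTPases, which interferon gamma induces too. Tgtp2 was at 8.24, 22.9 and 27.3 CPM in young and at 1.05, 3.06 and 4.82 CPM in aged samples, without overlap (SE 0.53, edgeR adjusted p = 0.0119). Its estimates and those of Tgtp1, in the same list, were fractions in all young samples and in aged A and aged B. Tgtp1 did not pass (log2 fold change -1.02, edgeR adjusted p = 0.522), and the sum of the pair was not tested. Cd274, which encodes the checkpoint ligand PD-L1, was the gene that rose, from 61.0, 63.1 and 47.4 CPM to 181, 92.1 and 128 CPM (log2 fold change 1.23, SE 0.24, edgeR adjusted p = 0.0122). The count lower was 2 without young C, 7 without young B, 13 without aged C and 15 without aged B, and Cd274 did not pass without young C.

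Of 29 tested relatives of the members that are not among the 49, 7 were lower (24.1%, against 7.97% of all genes tested). In this list 1 gene was higher, against 9.73% of all genes. Beside the 4 p200 genes and Phf11a, Parp12 (-0.76) and Ms4a6b (-0.95) fell. Ifitm1 rose and was at 72.3, 85.3 and 75.3 CPM in young and at 312, 157 and 282 CPM in aged samples, without overlap (log2 fold change 1.69, SE 0.25, edgeR adjusted p = 0.00426). Its neighbour Ifitm3, a member, had a log2 fold change of -0.58, and Ifitm2 one of 0.11 (SE 0.21). The count lower was 0 without young C, 1 without young B, and 2 without aged A or without aged B.

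Markers of other cells were read beside these values. Of the 8 classical monocyte markers that are not members, Vcan and Hp rose and the other 6 did not pass. The sum of the 8 was at 1864 to 3671 CPM in young and at 3976 to 5358 CPM in aged samples. Its largest part was Chil3, which did not pass and overlapped, at 642 to 1993 CPM in young and 1904 to 2810 CPM in aged samples. Of 11 neutrophil markers tested 4 rose (Retnlg, Cxcr2, Cd177 and Lcn2), with sums of 579 to 1026 CPM in young and 790 to 1431 CPM in aged samples. Of 8 macrophage markers the complement genes C1qa, C1qb and C1qc fell and Csf1r, Mertk, Cd68, Lyz2 and Mrc1 did not pass. The sums were 32205 to 46971 CPM in young and 22120 to 25817 CPM in aged samples. Most of it was Lyz2, at 24157 to 38843 CPM in young and 16240 to 21389 CPM in aged samples, while Csf1r had a log2 fold change of 0.12. Of 5 erythroid markers 4 fell, with sums of 153 to 490 CPM in young and 41.8 to 152 CPM in aged samples and the lowest young value in young A. Of 6 nonclassical monocyte markers Cx3cr1 fell (log2 fold change -1.87, edgeR adjusted p = 0.0155) and Ace rose (log2 fold change 2.71, edgeR adjusted p = 0.0122). The young values of Ace rest on 5, 4 and 4 counts. Nr4a1, Spn, Treml4 and Eno3 did not pass. The sums were 122 to 371 CPM in young and 132 to 242 CPM in aged samples, most of it Nr4a1. Of 4 endothelial markers 2 were tested. Pecam1 rose, from 6.80 to 10.1 CPM in young to 24.4 to 28.3 CPM in aged samples (edgeR adjusted p = 0.00220). Kdr had the opposite sign and did not pass (log2 fold change -0.40, edgeR adjusted p = 0.634), and Cdh5 and Tek were below the filter. The sums were 9.91 to 11.2 CPM in young and 25.0 to 30.5 CPM in aged samples, most of it Pecam1. Of 4 B cell markers 1, Cd79b, was tested and fell (log2 fold change -1.58, edgeR adjusted p = 0.0308), with sums of 4.62 to 12.9 CPM in young and 2.61 to 4.08 CPM in aged samples. Keratinocyte markers summed to 111 CPM in aged B against at most 1.24 CPM in any other sample, and Krt14, the 1 of 5 tested, passed as higher (edgeR adjusted p = 0.0259). No tested marker of fibroblasts (5 of 6 listed), mast cells (4 of 4) or conventional dendritic cells (5 of 6) passed by edgeR, and 1 of them, Ccr7, had an unadjusted p under 0.05. Their sums were 23.3 to 41.0 CPM in young and 12.4 to 119 CPM in aged samples for fibroblasts, highest in aged B, then 17.8 to 66.6 CPM and 0.741 to 50.7 CPM for mast cells, and 16.1 to 54.7 CPM and 30.3 to 93.8 CPM for conventional dendritic cells. Plasmacytoid dendritic cells are a known source of interferon, and of their 7 listed markers other than Bst2, 3 were tested. Runx2 rose, from 1.47 to 5.70 CPM in young to 8.83 to 10.9 CPM in aged samples (log2 fold change 1.68, SE 0.43, edgeR adjusted p = 0.0279). Tcf4, at 51.8 to 63.3 CPM, and Ccr9, at 0.0587 to 2.80 CPM, did not pass, while Siglech at 0 to 1.40 CPM and Cox6a2 at 0.111 to 0.763 CPM were below the filter. The markers other than Bst2 summed to 56.4 to 60.1 CPM in young and 64.8 to 77.2 CPM in aged samples, most of it Tcf4. Of 10 listed T and NK cell markers 4 were tested and 1, Cd4, fell (log2 fold change -1.76, edgeR adjusted p = 0.0386), with sums of 5.68 to 8.68 CPM in young and 3.34 to 13.9 CPM in aged samples. Nkg7 (log2 fold change -1.80) and Gzmb, which reached 9.81 CPM in aged A, did not pass, and the T cell genes Cd3e, Cd3d and Cd3g were at 0 to 1.19 CPM. The part of these markers in the changes of the interferon-stimulated genes was not tested. Bst2 is itself listed as a marker of plasmacytoid dendritic cells and Ms4a4c as one of monocytes.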

How the data were processed

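Macrophage RNA was amplified with the SMART-Seq v4 kit, which does not keep strand or tag molecules, so reads are not independent molecules. Per the deposited analysis details and the study's methods, the authors aligned reads with STAR (version 2.7.3a in the submitters' notes) to mm10, quantified them on Ensembl transcripts (release 102) in Partek Flow, and deposited expected counts (estimated reads per gene), not normalised, for genes with a total of at least 10. Between 30.7% and 34.0% of these estimates were not whole and were rounded. A table of scaled values with the authors' own DESeq2 comparison was not used. The end coordinate in the table lies 1 base past the gene and was corrected.

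Young and aged samples were compared with edgeR 4.0.16 (R 4.3.3): TMM factors, filterByExpr, the quasi-likelihood test and Benjamini-Hochberg adjustment over 11878 genes, passed at an adjusted p under 0.05. The study's own tool was DESeq2 (1.42.0 here), which was an alternative, beside limma-voom (limma 3.58.1), other scalings and filters, the set letter as a replicate block, each sample left out, and summed pairs of copies, the last chosen after seeing the data. Tests were checked on simulated data. No samples of 1 age agreed within sampling noise (chi-square per degree of freedom of 31.7 to 121). The 49 members, their families, the other gene lists and the markers were chosen with earlier results of these data known. Sample values are given for the largest and smallest change in each family, for members past the test by more than 2-fold, for a member higher at an unadjusted p under 0.05, and for some genes chosen after their values were seen. Promoters came from RefSeq (GRCm38.p6) for 39 of 49 members, all but Ifi204, Ifi27l2a, Mx1, Mx2, Oas2, Parp14, Parp9, Rtp4, Tor3a and Usp18; transcript identities came from local alignment (Biopython 1.88) of the longest GENCODE M21 transcripts. 1 gene of the pathway list is not reported here.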

Additional observations from a re-analysis of the deposited data

How the results depend on the processing

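All 25 members called lower were also called by DESeq2, limma-voom, edgeR without scaling factors and edgeR with the set letter as a replicate block, and 24 of them, all but Isg15, with DESeq2 size factors in edgeR, with no filter and with a mean of at least 10 counts. The number of members lower was 29, 27, 35, 32, 24, 24 and 24 in that order and 23 with pairs of copies summed. Without scaling factors the median of all genes moved from -0.02 to -0.20, lower calls over all genes from 947 to 1553 and higher calls from 1156 to 585, and the median of the members moved to -1.07, so relative to all genes it stayed near its main value. That setting turned the sign of Ifi203 (-0.072), Ifnar2 (-0.069) and Ifngr1 (-0.082). DESeq2 called 1 member higher (Slfn2) and 2 relatives of the members higher.

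Leaving out 1 sample at a time gave 6 to 31 members lower, 6 to 23 lower by more than 2-fold and 0 to 1 higher. The ranges were 0 to 4 lower and 1 to 6 higher for pathway genes, 2 to 31 and 0 to 2 for the other interferon-stimulated genes, 0 to 9 and 1 to 2 for relatives, and 67 to 1128 and 151 to 1574 for all genes. Log2 fold changes ran from -0.11 to 0.31 for Ifi203, from -0.98 to 0.061 for Slfn9 and from -0.025 to 0.31 for Ifngr1. The labels do not say what the set letters stand for, and whether they pair the samples was not settled. Same-lettered samples deviated together with r of 0.18 for A, -0.02 for B and 0.11 for C across genes. The value for A was the highest of any young with any aged sample, while young B correlated best with aged C. In the mean log2 distance of the members, set A was the lowest and set C the highest sample at both ages. The block on the letter gave 32 members lower and 0 higher. The 7 members it added were Rsad2, Cmpk2, Isg20, Samd9l, Ifitm3, Ifi209 and Dtx3l (edgeR adjusted p 0.0266 to 0.0480). Stat2 did not pass with the block (edgeR adjusted p = 0.0513). Depth limits Mx2, Ifi44, Cxcl9 and Slfn9, each with a sample of 6 or 7 counts, and 3 samples per age limit every call.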
